A study of Mus musculus with 8 samples.

Results

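Described here are 36 genes of glucose breakdown, glycogen turnover and the pentose phosphate pathway in mouse inguinal (ING) white adipose tissue (WAT), out of 38368 genes with at least 1 quantified transcript. The genes were taken by symbol, all 36 were found, and all 36 had a mean expression high enough to be tested. They were grouped by role, and 4 isoforms that are best known from skeletal muscle (*Pfkm*, *Pgam2*, *Eno3* and *Pygm*) were kept apart from the other 32 members. ING WAT of C57BL/6j mice was collected at postnatal day 21 (PN21; animals m1, m49, m138 and m145) and at postnatal day 98 (PN98; mice m35, m106, m114 and m125), so that there were 4 mice per age. No allele was changed in either group. Per the study's methods, both ages were killed in a fasted state, males were weaned and kept, epididymal fat, which only males have, was collected at both ages, and PN98 mice had been fed either a semi-synthetic maintenance diet or a western style diet from PN42. The labels do not state the sex of the sequenced mice, and which of these diets the sequenced PN98 mice ate is not given in the sources used here, so age cannot be told apart from diet.

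Glycolysis converts glucose to pyruvate in the cytosol, and most of its steps are carried out by isoforms encoded by different genes. Glycogen stores glucose for short periods, and the pentose phosphate pathway supplies NADPH, which adipocytes use for fatty acid synthesis. Fat depots can hold pieces of neighbouring muscle, and muscle has its own isoforms of several of these enzymes.

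Expression is given as FPKM, which counts sequenced fragments per transcript length and per library, summed over the transcripts of a gene. Levels of different genes can therefore be set beside each other, but the sums include transcripts that are not protein coding. In m1, a retained intron transcript held 103 of the 109 FPKM of *Gapdh*, and another held 268 of the 541 FPKM of *Pygl*. The sums are thus not levels of protein-coding mRNA alone. The sum of 8 adipocyte markers lay between 12636 and 22956 FPKM at PN21 and between 34044 and 44011 FPKM at PN98, most of it from *Fabp4*. Of the 8, 4 were higher at PN98 in limma's test. *Fabp4* (log2 fold change 0.97, limma adjusted p = 0.0540) and *Lep* (2.20, limma adjusted p = 0.0718) did not pass it. Neither did *Pparg* (log2 fold change −0.26) and *Plin1* (1.73 to 20.2 FPKM over the 8 mice). Markers of dividing cells and of red blood cells were lower at PN98 in 6 of 6 and 6 of 6 genes. Lymphocyte markers summed to 397.4 to 986 FPKM at PN21 and to 19.3 to 894 FPKM at PN98, where m35 was highest, and 0 of these 10 markers passed the test. The part of these cells in the results below was not tested, and in bulk tissue fewer cells of a type and less RNA per cell cannot be told apart.

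Of the 36 members, 1 was called higher at PN98 and 0 were called lower (limma, Benjamini-Hochberg adjusted p below 0.05 over 16098 genes). That is 2.78% higher, against 2.34% of all genes tested, and no member lower, against 2.91% of all genes tested, so the share of members called was near the background. Without adjustment, 9 members (25.0%) had a p under 0.05 in limma, against 27.2% of all genes. The 4 PN98 mice lay above all 4 PN21 mice for 3 members (8.33%, against 6.04% of all genes), namely *Pfkm*, *Pygm* and *Pygb*. They lay below all PN21 mice for 0 members, against 10% of all genes. As a median over genes, the log2 fold change was 1.498 for the 4 muscle isoforms and −0.28 for the other 32 members, against −0.21 for all genes tested.

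**Figure D1:**
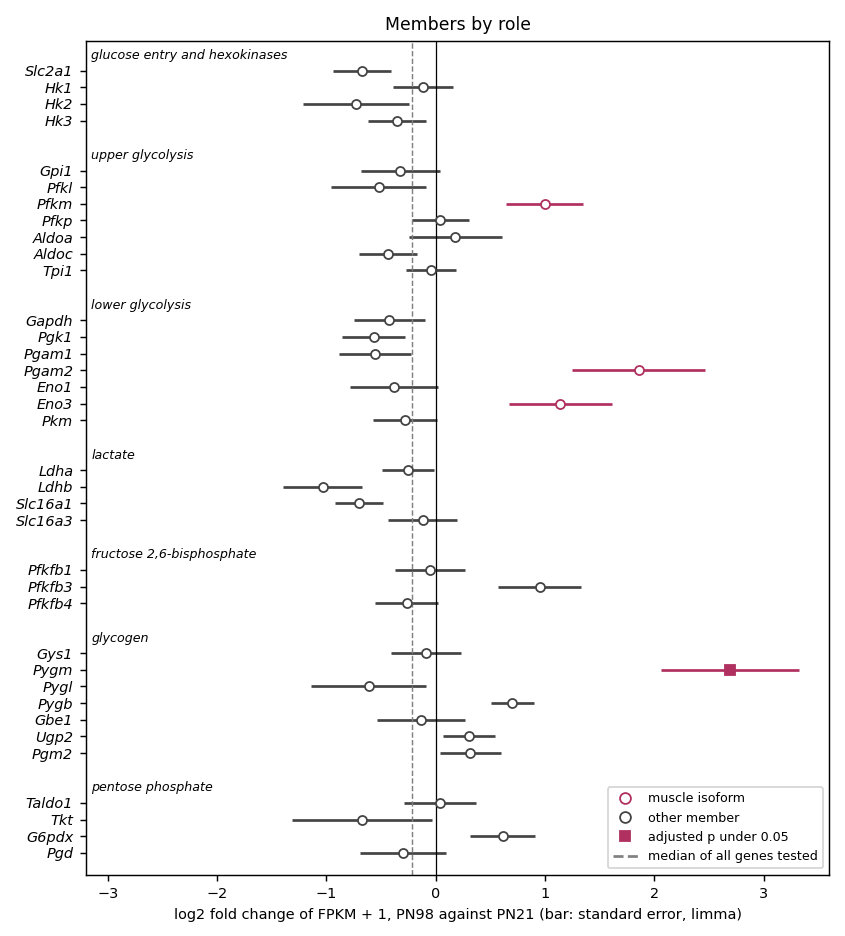
Log2 fold change of FPKM + 1 (horizontal axis, PN98 against PN21) for the 36 members, grouped by role. Bars are standard errors from limma with 4 mice per age, the filled square is the member that passed the test (*Pygm*, 2.69), and the dashed line is the median of all genes tested (−0.21). The 4 muscle isoforms lie between 0.995 and 2.69, to the right of the other members.

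The direction of the other 32 members depended on the scaling. As deposited, 24 of the 32 (75.0%) had a negative log2 fold change, against 67.0% of all genes tested. When the mice were scaled by the median of ratios, the median of all genes moved from −0.21 to −0.02, and 14 of the 32 were then positive. After scaling to the same summed FPKM of nuclear genes, the median of all genes was 0.02 and 15 of the 32 were positive. The 4 muscle isoforms were positive under all 3 scalings. With median of ratios scaling 2 of 36 members were called higher and 0 lower, against 761 (4.75%) and 451 (2.82%) of 16011 genes. With scaling to nuclear genes they were 1 and 0 of 36, against 573 (3.56%) and 264 (1.64%) of 16099 genes. Without m35 the members called were 4 of 36 higher and 1 lower, against 677 (4.23%) and 2847 (17.8%) of 15989 genes. Without m106 they were 0 and 0, against 98 (0.607%) and 103 (0.638%) of 16142 genes. Limma was also run with the mice weighted by how closely their values followed the fit over all genes. Then 6 of 36 members were called higher and 3 lower, against 1149 (7.14%) and 3480 (21.6%) of 16098 genes.

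*Pygm*, on chromosome 19 of mm10 from 6384399 to 6398459, encodes muscle glycogen phosphorylase, which releases glucose 1-phosphate from glycogen. At PN21 it was expressed at 3.23 (m1), 4.26 (m49), 14.4 (m138) and 9.90 (m145) FPKM, and at PN98 at 44.3 (m35), 148 (m106), 43.3 (m114) and 20.4 (m125) FPKM. All PN98 mice were above all PN21 mice, with m106 far above the rest. PN21 mice averaged 7.94 ± 5.19 FPKM and PN98 mice 64.0 ± 57.2 FPKM (SD, 4 mice each), and *Pygm* rose by a log2 fold change of 2.69 (SE 0.63, limma adjusted p = 0.0498, where SE is the standard error). This call was close to the threshold: it was lost when m1, m49, m138, m145, m106 or m114 was left out, with adjusted p-values between 0.0725 and 0.121, and held without m35 (0.0342) or m125 (0.0414). All these values are for the sum over transcripts, which includes retained introns. The tested protein-coding transcript had 1.28, 0.860, 5.21 and 0.363 FPKM at PN21 and 17.1, 90.1, 23.9 and 12.9 FPKM at PN98. As log2 FPKM without an added 1, that transcript rose by 4.45 (SE 0.92, limma adjusted p = 0.0689 over transcripts).

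*Pgam2* (chromosome 11, 5801640 to 5803733) encodes the muscle subunit of phosphoglycerate mutase. Its expression was 1.798, 3.71, 11.3 and 4.92 FPKM for PN21 in the same order of mice, and 13.8, 50.6, 23.1 and 7.91 FPKM for PN98. The ages overlapped, as PN21 mouse m138 was above PN98 mouse m125. This gave a log2 fold change of 1.86 with an SE of 0.61 and a limma adjusted p of 0.110.

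*Eno3* (chromosome 11, 70657202 to 70662513) encodes the muscle enolase. It had 25.6, 27.5, 61.6 and 26.4 FPKM at PN21 and 66.5, 173, 64.8 and 38.6 FPKM at PN98. Again m138 was the highest mouse of PN21, m106 the highest of PN98 and m125 the lowest of PN98, and the ages overlapped. *Eno3* differed by 1.14 on the log2 scale (SE 0.47, limma adjusted p = 0.170).

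*Pfkm* (chromosome 15, 98092589 to 98132451) encodes muscle phosphofructokinase, an isoform of the enzyme at the committed step of glycolysis. It had 16.6, 17.5, 17.1 and 12.4 FPKM at PN21 and 20.01, 68.5, 26.4 and 30.2 FPKM at PN98. The ages did not overlap, but the PN21 mice were narrow in range and m138 did not stand out. *Pfkm* differed by 0.995 on the log2 scale (SE 0.35, limma adjusted p = 0.130), and by 0.64 when m106 was left out (limma adjusted p = 0.191). Without m35 it was 1.22 and passed the test (adjusted p = 0.0392).

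Skeletal muscle markers also differed between the mice. Of 16 contractile and other muscle genes listed, 15 were found and none was listed at 0 in any mouse, and of 14 tested 3 (*Actn3*, *Atp2a1* and *Tcap*) were called higher at PN98. The tested markers all had positive log2 fold changes, from 0.14 (*Des*) and 0.26 (*Mb*) to 4.27 (*Ckm*). *Myh7*, too low to be tested, averaged 0.328 FPKM at PN21 and 0.0906 FPKM at PN98. The summed FPKM of the 15 markers was 91.3, 182, 626 and 184 in m1, m49, m138 and m145, and 1081, 3644, 1316 and 591 in m35, m106, m114 and m125. The order of all 8 mice in this sum was that of *Pgam2*, with m138 highest at PN21, m106 highest at PN98 and m125 lowest at PN98. Relative to the sum of muscle markers, *Pygm* was at 2.297% to 5.38% at PN21 and at 3.29% to 4.10% at PN98, so that the PN98 values lay within the range of PN21. *Pgam2* was at 1.801% to 2.67% of the marker sum at PN21 and at 1.28% to 1.75% at PN98. *Eno3* was at 9.84% to 28.1% and at 4.75% to 6.53%, and *Pfkm* at 2.73% to 18.2% and at 1.85% to 5.11%, respectively. Thus relative to the markers, the summed FPKM of *Pgam2* and *Eno3* was lower in all PN98 mice than in all PN21 mice. No muscle isoform had a sum that was higher in all PN98 mice on this measure. The tested protein-coding transcript of *Pygm* held 0.363 of 9.90 FPKM in m145 and 90.1 of 148 FPKM in m106. The ratios of the *Pygm* sum therefore do not describe that transcript, whose own ratios were not compared. The make-up of the marker sum differed, however. In m1 most of the 91.3 FPKM came from *Myl1* (55.6) and *Des* (21.3), whereas in m106 they had 359 and 58.2 of 3644 FPKM. These ratios therefore also depend on which markers made up the sum. Without m138 and m106, the mice with the highest muscle markers of each age, the log2 fold changes were 2.49 for *Pygm*, 1.78 for *Pgam2*, 1.03 for *Eno3* and 0.68 for *Pfkm*, with limma adjusted p-values between 0.122 and 0.307.

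**Figure D2:**
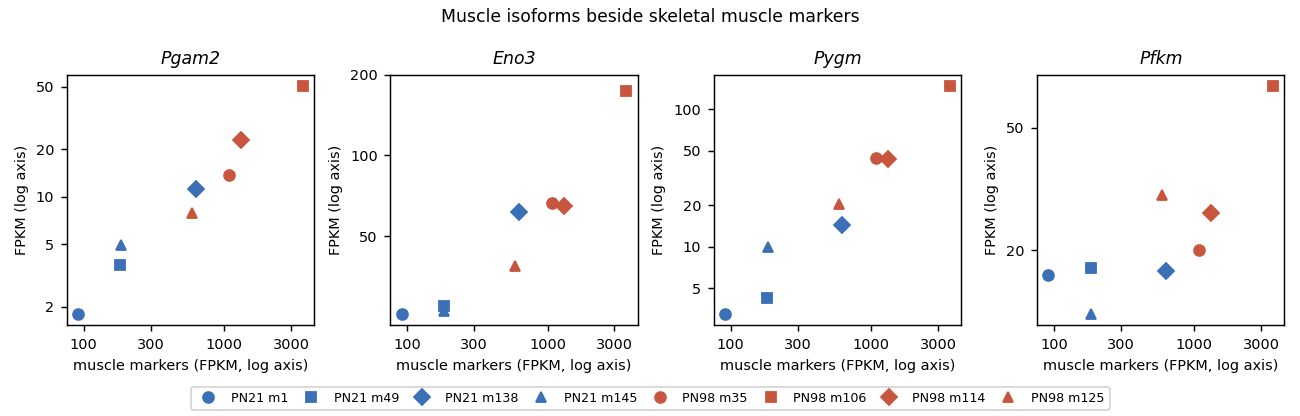
FPKM of *Pgam2*, *Eno3*, *Pygm* and *Pfkm* (vertical log axes) against the summed FPKM of 15 skeletal muscle markers (horizontal log axes), with 1 point per mouse. For *Pgam2* and *Pygm* the lowest point is m1 (91.3 FPKM of markers) and the highest m106 (3644). *Pgam2* keeps the order of the markers in all mice and *Pygm* does not, whereas *Pfkm* stays between 12.4 and 17.5 FPKM in the PN21 mice.

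The start regions of *Pgam2* and *Pygm* are shown because muscle genes often carry letters read by myogenic factors. *Pgam2* had the order of the muscle marker sum in all mice, and *Pygm* did not. For 35 of the 36 members a RefSeq start was matched by symbol and position (RefSeq, GRCm38.p6). The 250 bases before each start were searched for CAGCTG, the E-box form bound by myogenic factors, and for the MEF2 consensus, both of which read the same on either strand. In the sequences below, capitals mark these matches. The *Pgam2* window lies at chr11:5803797-5804046 on the minus strand and the *Pygm* window at chr19:6384158-6384407 on the plus strand.
Pgam2: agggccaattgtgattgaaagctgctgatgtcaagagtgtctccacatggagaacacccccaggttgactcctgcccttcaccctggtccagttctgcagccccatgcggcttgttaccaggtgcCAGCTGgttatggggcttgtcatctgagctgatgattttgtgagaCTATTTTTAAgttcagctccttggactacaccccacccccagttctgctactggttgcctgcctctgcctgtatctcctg
Pygm: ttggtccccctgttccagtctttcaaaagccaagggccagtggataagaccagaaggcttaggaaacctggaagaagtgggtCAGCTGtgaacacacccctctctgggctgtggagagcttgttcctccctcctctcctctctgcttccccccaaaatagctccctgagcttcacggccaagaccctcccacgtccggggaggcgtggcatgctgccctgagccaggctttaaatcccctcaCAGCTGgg
*Pgam2* had 1 CAGCTG and 1 MEF2 match, which did not overlap and the latter of which began 80 bases before the start. *Pygm* had 2 CAGCTG, beginning 168 and 8 bases before the start, and no MEF2 match. Neither motif was found in these windows of *Eno3* and *Pfkm*. Among the other members, 5 had CAGCTG (*Gpi1*, *Gys1*, *Pfkfb1*, *Pkm* and *Ugp2*) and 1 had a MEF2 match (*Pfkfb1*). Counted by window, 7 of 52 windows of members (13.5%) held CAGCTG and 2 (3.85%) the MEF2 consensus, near the 13.0% and 2.92% of all 32851 windows.

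Glucose entry and phosphorylation was represented by *Slc2a1*, the GLUT1 transporter, and hexokinases 1 to 3. *Hk2*, the insulin-responsive hexokinase of fat and muscle, had the highest mean, with 44.9, 95.8, 49.7 and 53.4 FPKM at PN21 and 14.6, 40.1, 29.9 and 80.5 FPKM at PN98. It was lowest in m35 and the ages overlapped (log2 fold change −0.73, SE 0.48, limma adjusted p = 0.346). *Slc2a1* had 5.70 to 8.17 FPKM at PN21 and 2.46 to 7.23 FPKM at PN98, which is −0.68 on the log2 scale (limma adjusted p = 0.154). When m35 was left out it was called lower, at −0.91 (adjusted p = 0.0194). *Hk1* and *Hk3*, at 7.79 to 17.1 FPKM and 1.05 to 3.93 FPKM over the 8 mice, had log2 fold changes of −0.11 and −0.35 and did not pass the test.

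In upper glycolysis, *Aldoa*, the aldolase found in most tissues, was the most abundant of all members. It had 2066, 2143, 1143 and 1296 FPKM at PN21 and 833, 2618, 1607 and 3081 FPKM at PN98. The PN98 mice enclosed the whole range of PN21, from m35 at the bottom to m125 at the top (log2 fold change 0.18, SE 0.43, limma adjusted p = 0.806). *Gpi1* (glucose 6-phosphate isomerase), *Tpi1* (triosephosphate isomerase), and the liver and platelet phosphofructokinases *Pfkl* and *Pfkp* ranged from 33.6 FPKM for *Pfkp* to 470 FPKM for *Tpi1*, with log2 fold changes between −0.52 and 0.04. *Aldoc*, the brain aldolase, was at 0.416 to 2.33 FPKM. None of these 5 passed the test.

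In lower glycolysis, *Eno1*, the enolase of most tissues, had 1074, 912, 691 and 657 FPKM at PN21 and 308, 904, 500 and 1106 FPKM at PN98. m35 was the lowest of all 8 mice and m125 the highest, and the ages differed by −0.38 on the log2 scale (SE 0.40, limma adjusted p = 0.547). *Gapdh*, *Pgk1*, *Pgam1* and *Pkm*, which encode the enzymes from glyceraldehyde 3-phosphate dehydrogenase to pyruvate kinase, had log2 fold changes between −0.57 and −0.28 and adjusted p-values between 0.235 and 0.537. Each of these 4 was lowest in m35.

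Several of these genes have near-identical copies elsewhere in the genome, mostly processed pseudogenes, and reads shared between copies cannot be placed with certainty. *Gapdh* itself held 32.2% to 34.96% of the FPKM assigned to it and to 155 copies, *Pgk1* 26.3% to 28.5%, *Pgam1* 40.3% to 41.5%, *Ldhb* 39.8% to 44.6%, *Eno1* 51.6% to 54.3% and *Gpi1* 57.0% to 61.5%, so that their own levels are uncertain. *Ldha* held 75.5% to 80.8%, *G6pdx* 86.5% to 88.3%, *Pkm* 91.7% to 96.1% and *Aldoa* 92.0% to 96.9%. These shares were similar in the 8 mice. With the copies added, log2 fold changes were −0.38 for *Gapdh*, −0.54 for *Pgk1*, −0.55 for *Pgam1*, −1.02 for *Ldhb*, −0.42 for *Eno1* and −0.30 for *Gpi1*, and no call of a member changed.

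Lactate dehydrogenase interconverts pyruvate and lactate. *Ldha*, its muscle-type subunit, had 608, 786, 447 and 583 FPKM at PN21 and 357, 486, 580 and 615 FPKM at PN98, and the ages overlapped (log2 fold change −0.25, SE 0.24, limma adjusted p = 0.499). *Ldhb*, the heart-type subunit, had 152, 201, 108 and 180 FPKM at PN21 and 41.3, 90.1, 66.4 and 133 FPKM at PN98. Only m125 at PN98 lay above the lowest PN21 mouse, m138. *Ldhb* differed by −1.03 on the log2 scale (SE 0.36, limma adjusted p = 0.128). The lactate carrier *Slc16a1* (MCT1) had 25.6 to 35.3 FPKM at PN21 and 13.1 to 26.3 FPKM at PN98 (log2 fold change −0.70, SE 0.22, limma adjusted p = 0.101). *Slc16a3* (MCT4) stayed at 0.631 to 4.03 FPKM over the 8 mice, with a log2 fold change of −0.12.

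*Pfkfb3* encodes an enzyme that makes fructose 2,6-bisphosphate, the activator of phosphofructokinase. It had 79.2, 47.0, 80.6 and 47.4 FPKM at PN21 and 62.2, 172, 102 and 186 FPKM at PN98. All PN98 mice but m35 were above all PN21 mice. *Pfkfb3* differed by 0.95 on the log2 scale (SE 0.38, limma adjusted p = 0.161), and without m35 the difference was 1.26 and passed the test (adjusted p = 0.0288). Its relatives *Pfkfb1* (15.8 to 45.2 FPKM) and *Pfkfb4* (3.601 to 9.81 FPKM) had log2 fold changes of −0.05 and −0.27.

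Among glycogen enzymes, *Pygl*, liver glycogen phosphorylase, had the highest level, with 541, 568, 316 and 234 FPKM at PN21 and 94.8, 373, 235 and 492 FPKM at PN98. The ages overlapped, with m35 lowest (log2 fold change −0.61, SE 0.53, limma adjusted p = 0.461). *Pygb*, brain glycogen phosphorylase (chromosome 2, 150786735 to 150831758), had 48.1, 40.8, 37.6 and 32.4 FPKM at PN21 and 57.5, 57.1, 87.0 and 60.5 FPKM at PN98. All PN98 mice, m35 included, were above all PN21 mice, and the means were 39.7 ± 6.58 and 65.5 ± 14.4 FPKM (SD, n = 4 each). *Pygb* differed by 0.70 on the log2 scale (SE 0.20, limma adjusted p = 0.0812). It passed the test with median of ratios scaling (0.93, adjusted p = 0.0423) and without m35 (0.75, adjusted p = 0.0436). *Gys1* (glycogen synthase), *Gbe1* (branching enzyme), *Ugp2* (UDP-glucose pyrophosphorylase) and *Pgm2* (a phosphoglucomutase) had log2 fold changes of −0.09, −0.14, 0.30 and 0.32 and did not pass the test.

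In the pentose phosphate pathway, *Tkt*, transketolase, was the most abundant gene, with 1282, 1286, 760 and 794 FPKM at PN21 and 164, 998, 588 and 1579 FPKM at PN98. The highest and the lowest values of the 8 mice were both at PN98, in m125 and m35, and differed 9.61-fold, against 1.69-fold between the PN21 mice. *Tkt* differed by −0.68 on the log2 scale (SE 0.64, limma adjusted p = 0.499) and by −0.04 without m35. *G6pdx*, glucose 6-phosphate dehydrogenase of the entry step, had 44.9 to 91.6 FPKM at PN21 and 64.6 to 119 FPKM at PN98 (log2 fold change 0.61, SE 0.30, limma adjusted p = 0.216). *Pgd*, the next dehydrogenase, had 102 to 391 FPKM and *Taldo1*, transaldolase, 244 to 693 FPKM over the 8 mice, with log2 fold changes of −0.30 and 0.04.

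Many of the non-muscle members varied together between the PN98 mice. PN98 mouse m35 was the lowest PN98 mouse for 23 of the 32 members (71.9%), against 16.6% of all genes tested, and the lowest of all 8 mice for 20 (62.5%), against 7.99%. The full order from m35 through m114 and m106 to m125 was found for 18 of the 32 (56.2%), against 5.10% of all genes tested. These 18 spanned all roles, among them *Hk2*, *Pfkl*, *Aldoa*, *Eno1*, *Ldhb*, *Pfkfb3*, *Gys1*, *Pygl*, *Gbe1*, *Taldo1* and *Tkt*. This order was chosen after the values were seen. The spread within PN98 was larger than within PN21 for 28 of the 32 members (87.5%), against 63.2% of all genes, and the median standard deviation on the log2 scale was 0.57 at PN98 and 0.36 at PN21, against 0.36 and 0.30 over all genes. Without m35, the median log2 fold change of the 32 members was −0.05 and 13 were positive, while the median of all genes was −0.27.

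**Figure D3:**
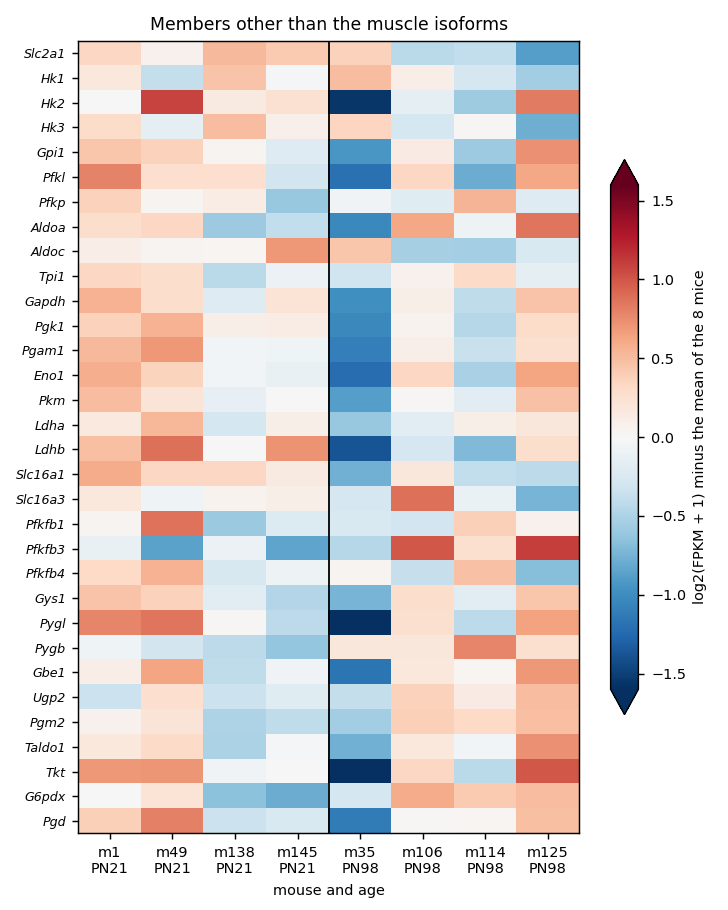
Level of the 32 members other than the muscle isoforms in each mouse (columns, 4 of PN21 and 4 of PN98), as log2(FPKM + 1) minus the mean of the gene over the 8 mice. The column of m35 is blue for most genes, as this mouse was the lowest of the 8 for 20 of the 32 members, whereas *Pfkp*, *Pygb*, *Hk1* and *Slc2a1* are not low in it.

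Summed over 7 genes, markers of brown adipocytes had the same order at PN98. This sum was 371 in m35, 1016 in m114, 2414 in m106 and 4228 in m125, and *Ucp1* had 7.41, 56.3, 278 and 356 FPKM in these mice. Of the 7 markers, 5 had this order and 7 were lowest of PN98 in m35, while *Elovl3* and *Dio2* were not highest in m125. At PN21 the sum of markers was 3953, 4019, 3038 and 6459 FPKM in m1, m49, m138 and m145, where 0 of the 18 members had the order of this sum. None of the 18 was highest in m145, which had the highest sum (0 of 18), and 10 of the 18 were lowest in m138, which had the lowest. The shares of all genes in these positions at PN21 were not counted, so these counts have no background. Lymphocyte markers summed to 894 FPKM in m35 and to 177, 58.6 and 19.3 FPKM in m106, m114 and m125. The part of brown adipocytes or of lymphocytes in these levels was not tested.

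Shares of isoforms within a mouse do not depend on the scaling of that mouse. For 10 shares, the ages were compared by an exact permutation test (two-sided, 70 ways to divide 8 mice by 4), whose smallest possible p is 0.0286. The share of *Ldhb* in the sum of *Ldha* and *Ldhb* was 19.99%, 20.4%, 19.5% and 23.6% at PN21 and 10.4%, 15.7%, 10.3% and 17.8% at PN98. All PN98 mice were below all PN21 mice, and the means were 20.9% ± 1.86 and 13.5% ± 3.79 (SD, n = 4 each, exact permutation test p = 0.0286, adjusted p = 0.143). The share of *Pfkm* in the sum of the 3 phosphofructokinases was 6.64%, 9.37%, 8.99% and 9.97% at PN21 and 17.99%, 29.2%, 16.8% and 13.6% at PN98, again without overlap (exact permutation test p = 0.0286, adjusted p = 0.143).

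Of the 3 glycogen phosphorylases, *Pygl* held 91.3%, 92.7%, 85.9% and 84.7% of the summed FPKM at PN21 and 48.2%, 64.5%, 64.3% and 85.9% at PN98. All PN98 mice but m125 were below PN21, and the mean was 22.9 percentage points lower (exact permutation test p = 0.0571, adjusted p = 0.143). The share of *Pygm* was 0.546% to 3.90% at PN21 and 3.56% to 25.6% at PN98 (exact permutation test p = 0.0857, adjusted p = 0.143). Shares of *Pgam2* in the phosphoglycerate mutases were 1.604% to 13.2% at PN21 and 7.92% to 38.3% at PN98, and shares of *Eno3* in the enolases were 2.33% to 8.18% and 3.38% to 17.8% (exact permutation test p = 0.0571 and p = 0.0857, adjusted p = 0.143 for both). Among the PN98 mice these shares did not all follow the muscle markers, as the share of *Eno3* was highest in m35 and that of *Pygm* was higher in m35 (22.5%) than in m114 (11.8%). The FPKM of *Eno3* and *Pygm* themselves were highest in m106. The denominators were low in m35, with *Eno1* at 308 FPKM against 904 in m106 and *Pygl* at 94.8 against 373. The shares of *Hk2*, *Pfkp*, *Aldoc* and *Slc16a1* had exact permutation p-values between 0.286 and 0.60. Adding near-identical copies changed the level of 3 shares by over 1.5 times in some mice. With copies, the share of *Ldhb* was 30.6% to 36.7% at PN21 and 17.8% to 28.8% at PN98, still without overlap, the share of *Pgam2* was 0.653% to 5.86% and 3.41% to 20.5%, and the share of *Eno3* was 1.26% to 4.40% and 1.801% to 10.5%. After adjustment over the 10 shares, 0 passed at 0.05, with or without copies. When m125 was left out, 7 of the 10 had an adjusted p of 0.0408 in this permutation test, among them the shares of *Ldhb* (−8.76 percentage points), *Pfkm* (12.6) and *Pygl* (−29.6). That value is the lowest that 7 of 10 shares can reach together. It shows only that the ages did not overlap for these 7 once m125 was left out.

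**Figure D4:**
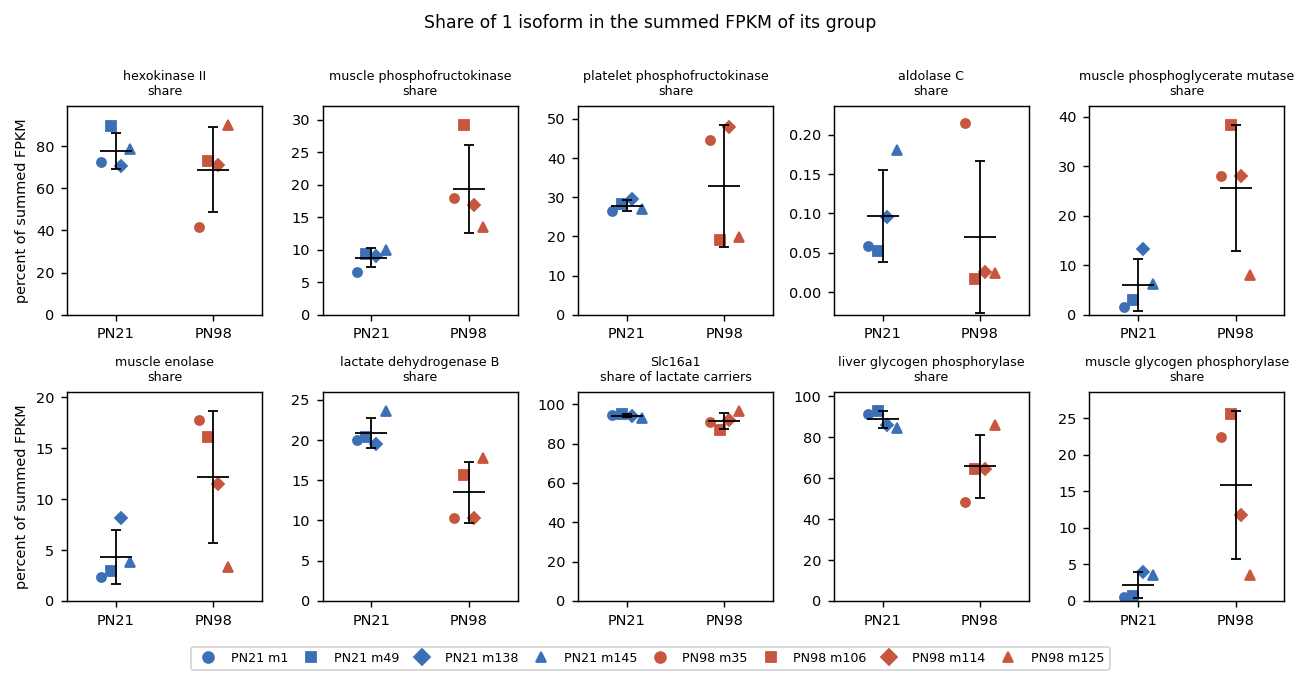
Share of an isoform in the summed FPKM of its group (vertical axes, percent) in each of the 4 PN21 and 4 PN98 mice, with the mean and standard deviation as black bars. The ages do not overlap for muscle phosphofructokinase (6.64% to 9.97% against 13.6% to 29.2%) and lactate dehydrogenase B (19.5% to 23.6% against 10.3% to 17.8%).

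To set the members beside the rest of their pathways, 54 further genes of glycolysis, glycogen, the pentose phosphate pathway and gluconeogenesis were examined (a list chosen with earlier results known), of which 39 were expressed enough to be tested. Of these, 4 (10.3%) were called higher at PN98, against 2.34% of all genes, and 1 (2.56%) was called lower, against 2.91% of all genes (limma, adjusted p below 0.05). As a median over these 39 genes, the log2 fold change was −0.02.

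*H6pd*, the hexose 6-phosphate dehydrogenase of the endoplasmic reticulum, which carries out the entry steps of the pentose phosphate pathway in that compartment, had the smallest p of the 39. It had 32.3, 24.4, 28.2 and 22.6 FPKM at PN21 and 74.8, 68.6, 73.6 and 84.0 FPKM at PN98. All PN98 mice were far above the highest PN21 mouse, and m35 lay within the range of the other PN98 mice. The mean rose from 26.9 ± 4.33 to 75.2 ± 6.42 FPKM (SD, n = 4 each), or by 1.46 on the log2 scale (SE 0.16, limma adjusted p = 0.00417). The call held when each mouse was left out in turn (limma adjusted p between 0.00532 and 0.0207), and was lost when m138 and m106 were left out together (0.0693), where the log2 fold change was 1.53. By contrast, *G6pdx*, the cytosolic counterpart, did not pass the test, and the difference between these genes was not tested.

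The next genes encode regulatory subunits of phosphorylase kinase, the enzyme that activates glycogen phosphorylase. *Phka2*, the liver alpha subunit, had 14.4, 13.7, 13.1 and 10.5 FPKM at PN21 and 23.3, 26.5, 29.7 and 24.0 FPKM at PN98 (log2 fold change 0.95, SE 0.16, limma adjusted p = 0.0171). *Phkb*, the beta subunit, had 19.5, 20.1, 18.4 and 22.2 FPKM at PN21 and 27.3, 38.9, 32.4 and 33.3 FPKM at PN98 (log2 fold change 0.68, SE 0.15, limma adjusted p = 0.0444). For both genes all PN98 mice were above all PN21 mice.

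*Epm2a*, which encodes the glycogen phosphatase laforin, rose from 2.42, 1.63, 2.15 and 1.48 FPKM at PN21 to 3.65, 6.80, 4.12 and 6.38 FPKM at PN98 (log2 fold change 1.07, SE 0.22, limma adjusted p = 0.0325). *Ppp1r3d*, a subunit that brings protein phosphatase 1 to glycogen, fell from 7.63, 9.40, 5.56 and 7.61 FPKM to 3.43, 4.30, 4.57 and 3.23 FPKM (log2 fold change −0.80, SE 0.19, limma adjusted p = 0.0486). The ages did not overlap in either gene. The call of *Ppp1r3d* was lost with median of ratios scaling (−0.60, adjusted p = 0.118) and with scaling to nuclear genes (−0.57, adjusted p = 0.135). Leaving out single mice ended the calls of *Phka2* (m138, m106 or m114) with adjusted p-values up to 0.0656, and those of *Phkb*, *Epm2a* and *Ppp1r3d* for every mouse but m35, with adjusted p-values up to 0.134, 0.0984 and 0.119.

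**Figure D5:**
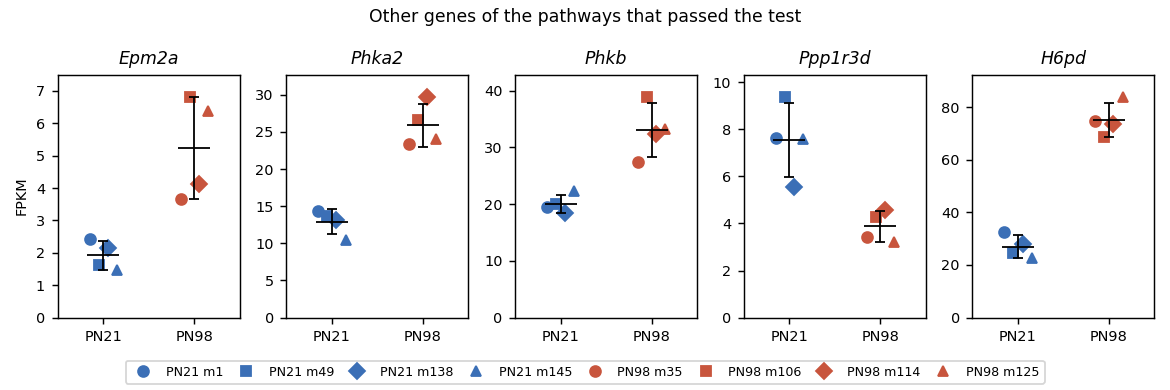
FPKM (vertical axes) of the 5 further pathway genes with an adjusted p under 0.05 in the 4 PN21 and 4 PN98 mice, with the mean and standard deviation as black bars. *H6pd* lies between 22.6 and 32.3 FPKM at PN21 and between 68.6 and 84.0 FPKM at PN98, and *Ppp1r3d* is the only gene of the 5 that is lower at PN98.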

How the data were processed

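Per the labels and the study's methods, poly(A)+ RNA of ING WAT was sequenced in paired-end reads from 4 mice per age. Per the submitters' processing notes, the authors used CASAVA 1.8.2, FastQC, STAR 2.3.0 on mm10 (GRCm38) and Cufflinks 2.1.1, and the deposited table holds FPKM for each transcript in each mouse. Read counts were not used here, so library depth is unknown and counting intervals could not be given. In 40506 of 91969 transcripts a value had lost its decimal mark or was a whole number. Decimals were restored from the deposited standard deviation, average and score, which also cover 2 further libraries. For 40395 of these transcripts 1 reading was possible, and the 111 with more than 1 were left out. All 5024 restored transcripts that are also in the authors' deposited list of selected transcripts had equal values in all 8 mice. The averages, fold changes and p-values of that list were not used.

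FPKM values were summed per gene (GENCODE vM21). Genes averaging at least 1 FPKM were compared as log2(FPKM + 1), PN98 minus PN21, with limma 3.58.1 in R 4.3.3 and Benjamini-Hochberg adjustment over 16098 genes. Fold changes on this scale understate the change of low genes. The limma p-values set the age difference against the spread between mice of one age, which limma moderates with the spread of all genes. Members were given per mouse if called, if the ages did not overlap, if highest of their role or if a muscle isoform, and others by range. *Slc2a1*, *Ldhb* and *Slc16a1* were given in more detail after their values were seen. Called genes of the further pathway list were named. Near-identical copies had at least 90% identity over at least 300 bases and 50% of the copy (blastn 2.17.0). Mice of one age correlated at 0.815 to 0.913 across genes (Pearson, log2 scale), so none were duplicates. The members and all lists were chosen with earlier results of these data known. Scripts were tested on simulated data and run with Python 3.11.15. Alternatives were the pseudocount, the filter, the scaling, mouse weights, a variance trend, single transcripts and leaving out mice. Adding copies, and leaving out the mouse of each age with the highest muscle markers (m138 and m106), were chosen after seeing the data.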

Additional observations from a re-analysis of the deposited data

Results flagged for a closer look

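In 92 groups of 4 mice (36 members and 10 shares at 2 ages), the highest or lowest mouse stood apart from the other mice of its age in 6, and chance alone gives about 1 in 20 groups. At PN21, *Pfkm* was low in m145 (12.4 FPKM), *Aldoc* was high in m145 (2.33 FPKM) and *Eno3* was high in m138 (61.6 FPKM), the PN21 mouse with the highest skeletal muscle markers. At PN98, *Pygb* was high in m114 (87.0 FPKM), *Pgm2* was low in m35 (61.0 FPKM) and the share of *Aldoc* in the aldolases was high in m35 (0.215%). What set these mice apart was not tested.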

How the results depend on the processing

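The number of members called higher at PN98 (1) was 0 with a pseudocount of 0.1, without a filter, with a mean FPKM of at least 5, with the transcript of lowest p and without m138 and m106, was 2 with median of ratios scaling and 6 with mouse weights, and ranged from 0 to 4 when single mice were left out. Members called lower (0) were 3 with mouse weights and 0 to 1 without single mice. Further pathway genes called higher (4) were 10 with mouse weights, 2 with single transcripts and 0 without m138 and m106, and 1 to 6 without single mice. Those called lower (1) were 9 with mouse weights, 0 with a pseudocount of 0.1, either scaling, single transcripts or without m138 and m106, and 0 to 5 without single mice. Of all genes, 376 were called higher, against 761 with median of ratios scaling, 573 with nuclear scaling, 1149 with weights, 155 with single transcripts, 12 without m138 and m106 and 98 to 677 without single mice. The 469 lower were 266 with a mean FPKM of at least 5, 264 with nuclear scaling, 3480 with weights, 139 with single transcripts, 25 without m138 and m106 and 103 to 2847 without single mice. The highest counts without single mice came without m35. Settings that leave out mice test fewer samples, and the cause of the other changes was not tested.

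Without single mice, the difference in share, in percentage points, ranged from 7.39 to 12.6 for *Pfkm*, 15.32 to 25.45 for *Pgam2*, 5.986 to 10.79 for *Eno3*, −8.755 to −6.259 for *Ldhb*, −4.203 to −0.9634 for *Slc16a1*, −29.61 to −17.06 for *Pygl* and 10.46 to 17.81 for *Pygm*, and passed at an adjusted p under 0.05 only without m125. Each of these shares then had the smallest p that the permutation test can give, which means only that the ages did not overlap. No paired analysis was possible because the labels give the mice of both ages no shared numbers. Without counts, depth limits cannot be stated.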
